A study of Mus musculus with 24 samples.

Results

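Sin3a lies on mouse chromosome 9, and 9 gene symbols of the deposited table that sit within 25 Mb of it are described here: AC107819.3, AC160637.1, Pts, Plet1, Usp28, Igdcc4, Cep164, Lactb and Rnf26. Rnf26 names 2 rows, so the symbols cover 10 of the 51912 rows. They were selected on their difference between CKO and control lungs in these same libraries. Genotype differences below are therefore a description and carry no p-value, while stage effects were not used in the choice and are tested. The window held 1273 rows, of which 465, all 10 member rows among them, had enough counts to be tested over all 24 libraries. Among genes called between the genotypes (stage average, adjusted p below 0.05), the outermost inside the window was Fli1 at 24.53 Mb. It had a log2 fold change of -0.36 ± 0.08 (CKO over control, SE). The next called gene outside was CT025678.1 at 25.79 Mb, with -1.10 ± 0.26. Tested genes nearer the inner edge were not called, such as Arhgap32 at 24.8 Mb with -0.16 ± 0.11.

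RNA came from whole lungs of mice that carried the transgenes Tbx4rtta and tetocre. Conditional knockout (CKO) lungs had the Sin3a genotype F/F (both alleles floxed) at embryonic day 16 (E16), at birth (P0) and at postnatal day 3 (P3), with 4 lungs per stage. Control lungs, also 4 per stage, carried both transgenes too and are titled Sin3a F/+ at E16 and P0 but F/F at P3, so the P3 groups rest on the words CKO and control alone. All dams received doxycycline from embryonic day 12, which lets the Tbx4-driven transactivator switch on Cre in lung mesenchyme. Epithelial, endothelial and blood cells contribute to the same libraries, so fewer cells of a type and less RNA per cell cannot be told apart. By the driver these cells should keep Sin3a, which was not measured by cell type. The labels call the replicates biological and do not say which lungs are littermates. Sample identifiers carry a prefix that some CKO and control lungs of a stage share, and the labels do not explain it.

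SIN3A is the scaffold of a histone deacetylase complex that transcription factors, among them the MXD partners of MAX, bring to promoters to repress them. A floxed allele is also inherited with the DNA beside it, so a mouse line can carry a stretch of the chromosome from the strain in which the allele was made. That strain is not given in the sources used here, and every CKO lung carried both floxed alleles. At E16 and P0, linkage to the allele and regulation by SIN3A therefore cannot be told apart. At P3 the titles give F/F and both transgenes to CKO and control lungs, so what separates these groups is not given. Linkage and regulation cannot be told apart there either.

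Libraries held 27.02 to 36.35 M counts. Lung markers were present in all of them, with a summed level of 2670 to 13100 counts per M (CPM) for 5 epithelial genes and 815 to 1630 CPM for 6 mesenchymal genes. At P0 some libraries stood apart. The sum of 5 thymus markers was 805 CPM in CKO replicate 1 and 1130 CPM in control replicate 3, and 1.39 to 6.90 CPM in the remaining ones. That of 5 cartilage markers was 289 CPM in CKO replicate 3. P0 CKO replicate 1 and control replicate 3 share an identifier prefix, and CKO replicate 3 shares one with control replicate 2. Xist was above 100 CPM in 4 CKO and 1 control lungs at E16, in 2 CKO and 3 control lungs at P0, and in 2 CKO and 1 control lungs at P3. Sin3a itself averaged 129 ± 16.7 CPM in CKO and 133 ± 7.41 CPM in control lungs at E16, 103 ± 13.1 and 95.5 ± 9.16 CPM in CKO and control lungs at P0, and 103 ± 3.50 and 96.9 ± 6.05 CPM in CKO and control lungs at P3 (SD, n = 4 each). Its whole-gene count overlapped between genotypes and does not show the floxed part, whose position is not given in the sources used here.

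One of the genes, Rnf26, can be read only together with a near-identical copy, so its sequence comes first. Rnf26 encodes a ubiquitin ligase of the endoplasmic reticulum membrane and lies at chr9:44095631-44113517 (mm10, minus strand), 12.96 Mb from Sin3a. Gm9008, which the GENCODE annotation tags as a retrogene, lies at chr6:76495432-76497784 on the minus strand, and its transcript matched that of Rnf26 over 2322 bases at 99.1% identity with 17 mismatches. The 90 bases below are from the coding exon of Rnf26 and the same stretch of Gm9008, from GENCODE transcripts on GRCm38 and written 5′ to 3′ on the minus strand, with the differing bases in capitals. They show how little sequence there is to tell a read of one locus from a read of the other.
Rnf26 (chr9:44112797-44112886): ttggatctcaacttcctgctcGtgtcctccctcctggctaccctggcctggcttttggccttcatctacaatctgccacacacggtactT
Gm9008 (chr6:76497479-76497568): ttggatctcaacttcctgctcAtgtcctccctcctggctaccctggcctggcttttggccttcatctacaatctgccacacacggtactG

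Rnf26 was somewhat higher in CKO lungs on average, and the groups overlapped at every stage. At E16 it had 54.4, 59.6, 67.0 and 60.9 CPM in CKO lungs, against 60.8, 58.3, 45.2 and 37.8 CPM in control lungs. At P0 it had 56.9, 41.6, 37.6 and 37.9 CPM in CKO lungs, against 29.1, 37.8, 30.1 and 32.2 CPM in control lungs. At P3 it had 42.3, 35.9, 39.1 and 29.5 CPM in CKO lungs, against 33.9, 28.7, 27.6 and 32.0 CPM in control lungs. The ranges of the groups ran into each other at each stage, and the log2 fold change averaged over stages was 0.32 ± 0.09 (CKO over control, SE).

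Gm9008 separated the genotypes completely. CKO libraries held at most 5 counts of it and control libraries 83 to 261, which is 0 to 0.178 CPM in CKO lungs and 2.87 to 7.79 CPM in control lungs. As a share of Rnf26 and Gm9008 counts together, Gm9008 took 0.0278% ± 0.0323, 0.0391% ± 0.0463 and 0.162% ± 0.183 in CKO lungs at E16, P0 and P3, against 11.1% ± 0.693, 10.8% ± 0.922 and 10.8% ± 1.64 in control lungs (SD, n = 4 each). The 5 libraries with no Gm9008 count, all CKO, allow a share of up to 0.137 to 0.342% by counting error alone. The P3 controls titled F/F, at 9.41 to 12.8%, lay with the F/+ controls of the earlier stages. When Rnf26 and Gm9008 were summed, group means gave log2 ratios of 0.09, 0.27 and 0.10 (E16, P0, P3), against 0.26, 0.43 and 0.26 for Rnf26 alone. The row Gm49380, listed under the same symbol and overlapping Rnf26 at chr9:44066327-44113500 (minus strand), had 0 to 0.763 CPM in all 24 libraries, and its log2 fold change was 0.76 ± 0.63.

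A second set of loci split the libraries in nearly the same way. Hspa8 is a constitutive chaperone gene 16.26 Mb from Sin3a. Gm26825 and Gm15459 were taken as its copies, and their sequence identity to it was not measured. Their share of the joint count was 0.882 to 1.25% in CKO lungs and 14.4 to 15.4% in 11 of 12 control lungs. In P3 control replicate 1 it was 1.00% (Wilson 95% interval 0.914 to 1.10%, counting error only), inside the CKO range, although the Gm9008 share of that library was 9.47%. Without it, the log2 fold changes of all member rows averaged over stages stayed within the spread of their replicates. The fits with and without it share all other libraries and are not independent.

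**Figure D1:**
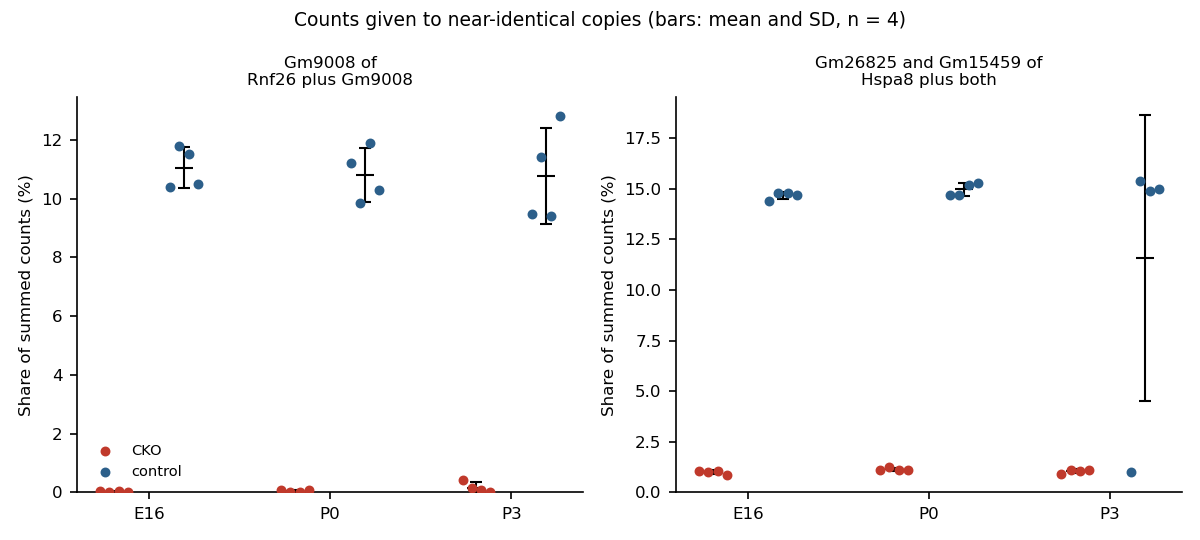
Share of joint counts in each library (percent) given to Gm9008 beside Rnf26 (left) and to Gm26825 with Gm15459 beside Hspa8 (right), with mean and SD (n = 4) at E16, P0 and P3. Sequence identity was measured for Gm9008 only. CKO lungs lay near 0 on the left and between 0.882 and 1.25% on the right, and 1 control lung at P3 lay with them on the right at 1.00%.

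Of the 10 rows, 4 were lower and 6 higher in CKO lungs. Over the stage average 9 of 10 passed an adjusted p of 0.05 in edgeR, all but Gm49380, as did 8.38% of all genes tested. That count follows from how the genes were chosen. With each stage fitted alone, calls were rare for any gene: 0 of 10 member rows at E16 (0.0181% of all genes), 0 of 9 at P0 (0.0407%) and 1 of 9 at P3 (0.0117%), AC160637.1. That was also the only call at P3 within 25 Mb of Sin3a; it was lost without P3 CKO replicate 2, 3 or 4 or control replicate 2, 3 or 4, while 49 genes were called without P3 CKO replicate 1. The libraries of the genotypes did not overlap for 5 of 10 rows at E16, 6 of 9 at P0 and 7 of 9 at P3, against 5.74%, 4.61% and 7.45% of all genes. Pts, Usp28, AC160637.1 and AC107819.3 were apart in one direction at all 3 stages, which held for 61 genes or 0.331% of the table tested. These counts rest on the same genotype values that chose the genes, so their excess over all genes follows from the choice too.

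**Figure D2:**
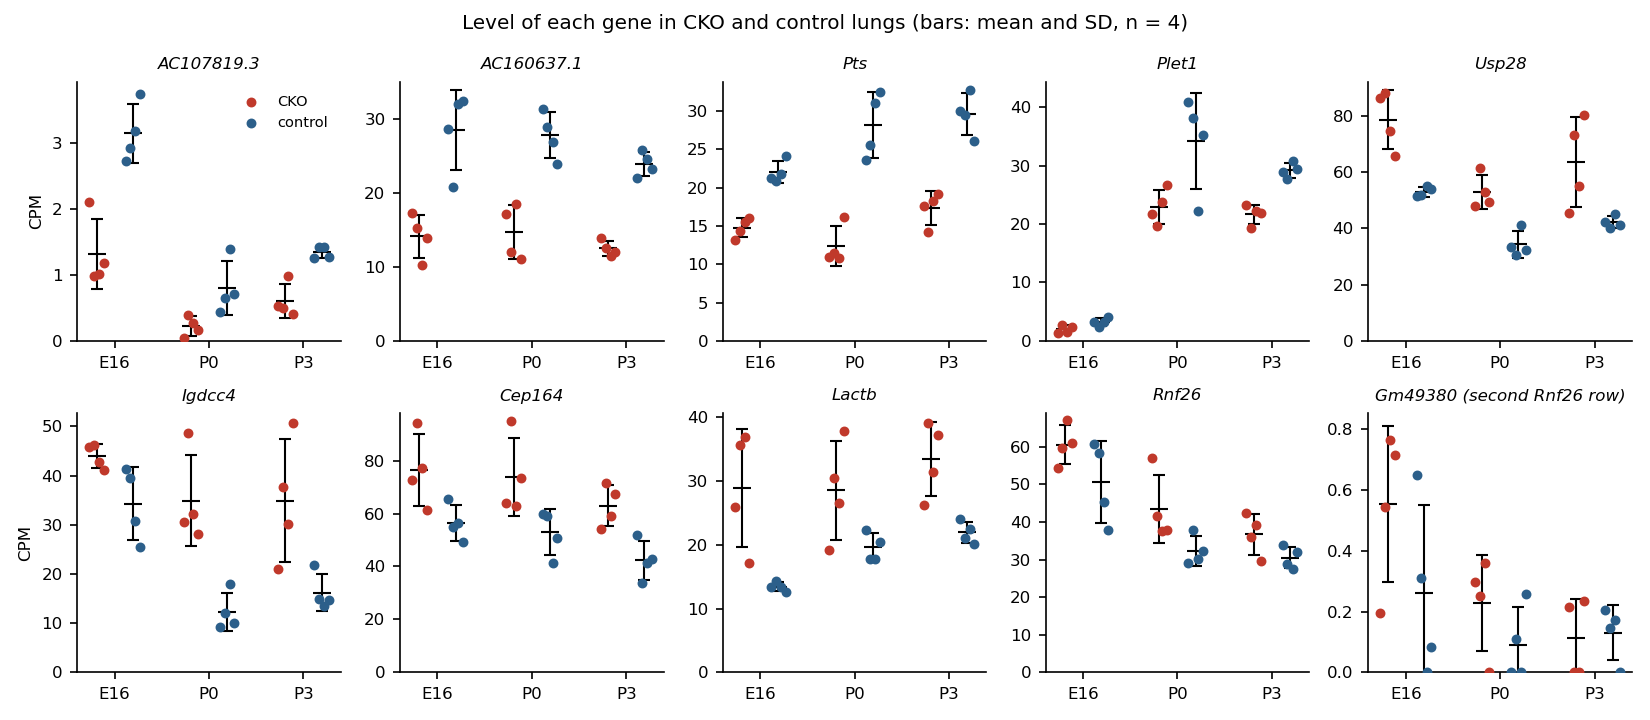
Level of each row in CPM (linear axes from 0) in CKO and control lungs at E16, P0 and P3; points are libraries and bars the mean and SD (n = 4), cut at 0. Pts, Usp28, AC160637.1 and AC107819.3 show no overlap between genotypes at any stage, and Rnf26 overlaps at each.

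The 4 genes that were lower in CKO lungs include both annotated loci without a known protein. AC107819.3, named Gm7435 in GENCODE and classed there as a transcribed processed pseudogene, lies closest to Sin3a, 1.12 Mb away at chr9:55938252-55952409 (plus strand). At E16 it had 2.11, 0.979, 1.01 and 1.18 CPM in CKO lungs, against 2.73, 2.92, 3.19 and 3.75 CPM in control lungs. At P0 it had 0.0373, 0.394, 0.277 and 0.173 CPM in CKO lungs, from 1 to 11 counts, against 0.446, 0.651, 1.39 and 0.709 CPM in control lungs, from 13 to 52 counts. At P3 it had 0.534, 0.504, 0.980 and 0.403 CPM in CKO lungs, against 1.26, 1.42, 1.42 and 1.27 CPM in control lungs. Every CKO library was below every control library of its stage, by a log2 fold change of -1.38 ± 0.24 averaged over stages. The same chromosome holds the copies AC107819.2 and 1700001J11Rik, 95.8% and 95.3% identical, which had few counts, and adding them gave log2 ratios of -1.27, -1.81 and -1.16 at E16, P0 and P3. Its match Rnf19a on chromosome 15, at 88.6% identity, averaged 110 ± 12.5 and 111 ± 14.1 CPM at E16 in CKO and control lungs (SD, n = 4 each).

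AC160637.1, named Gm49759 in GENCODE and of a class kept for transcripts that still await experimental evidence, lies 2.54 Mb from Sin3a at chr9:59672814-59676700 (plus strand). It sits inside Pkm, the gene of muscle-type pyruvate kinase, on the same strand and shares 455 identical bases with a Pkm transcript, so reads of the 2 genes can be confused. At E16 it had 17.2, 15.2, 10.3 and 13.9 CPM in CKO lungs, against 28.6, 20.8, 32.0 and 32.4 CPM in control lungs. At P0 it had 17.1, 12, 18.5 and 11.1 CPM in CKO lungs, against 31.3, 28.9, 26.9 and 23.9 CPM in control lungs. At P3 it had 13.9, 12.6, 11.4 and 12 CPM in CKO lungs, against 22, 25.8, 24.6 and 23.2 CPM in control lungs. The groups were apart at each stage and the log2 fold change hardly varied, at -0.99 ± 0.19, -0.93 ± 0.22 and -0.94 ± 0.11. Pkm itself overlapped between the genotypes at E16, P0 and P3, with log2 ratios of group means of -0.24, -0.06 and -0.25. Per 100 CPM of Pkm, AC160637.1 stood at 2.51 ± 0.787, 3.62 ± 0.759 and 4.85 ± 0.537 in CKO lungs at E16, P0 and P3, against 4.21 ± 1.02, 6.56 ± 0.226 and 7.95 ± 1.84 in control lungs (SD, n = 4 each). This ratio overlapped between the genotypes at E16 (CKO up to 3.38, control from 2.91) and was apart at P0 and P3. Log2 ratios of its group means were -0.75, -0.86 and -0.71 at E16, P0 and P3.

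Pts encodes the enzyme that follows GTP cyclohydrolase in making tetrahydrobiopterin, the cofactor of aromatic amino acid hydroxylases and nitric oxide synthases. It lies 6.54 Mb from Sin3a at chr9:50521617-50528724 (minus strand). Pts measured 13.2, 14.4, 15.5 and 16.0 CPM in E16 CKO lungs, against 21.3, 20.9, 21.8 and 24.1 CPM in control lungs. Pts measured 11, 11.5, 10.8 and 16.2 CPM in P0 CKO lungs, against 23.6, 25.5, 31.0 and 32.5 CPM in control lungs. Pts measured 17.6, 14.2, 18.3 and 19.2 CPM in P3 CKO lungs, against 30.0, 29.5, 32.7 and 26.1 CPM in control lungs. All CKO libraries lay below all control libraries of their stage, by log2 fold changes of -0.57 ± 0.10 at E16, -1.20 ± 0.21 at P0 and -0.78 ± 0.12 at P3. P0 CKO replicate 4, at 16.2 CPM, was high within its group and still below the lowest control.

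Of 12 other tested genes of the tetrahydrobiopterin pathway, 8 had a negative and 4 a positive log2 fold change over the stage average. Of these, 1 (Qdpr) was called higher and 0 lower, against 5.38% and 3.0% of all genes. Qdpr, the reductase that recycles the cofactor, had a log2 fold change of 0.86 ± 0.12 (edgeR quasi-likelihood test, adjusted p = 0.000129 over all genes). The median without Pts was -0.10, against -0.02 over all genes. The list was drawn up with earlier results of these data known, so its counts and p-value are descriptive.

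Plet1, a surface protein named for its expression in placenta and used as a marker of epithelial progenitor cells, lies next to Pts at chr9:50494525-50505482 (plus strand), 6.57 Mb from Sin3a. Plet1 measured 1.33, 2.64, 1.53 and 2.45 CPM in E16 CKO lungs, against 3.29, 2.44, 3.26 and 4.03 CPM in control lungs. Plet1 measured 21.7, 19.7, 23.8 and 26.6 CPM in P0 CKO lungs, against 40.8, 38.2, 22.3 and 35.2 CPM in control lungs. Plet1 measured 23.2, 19.4, 22.3 and 21.8 CPM in P3 CKO lungs, against 28.9, 27.7, 30.7 and 29.4 CPM in control lungs. The groups were apart at P3 and overlapped at E16 and P0. The overlap at P0 came from control replicate 3, the library high in thymus markers, whose 5 epithelial markers summed to 8490 CPM against 12200 to 13100 CPM in the other P0 controls. In P0 CKO lungs the epithelial sum was 9000 to 11400 CPM, below those 3 controls and above control replicate 3. It was 2670 to 4800 CPM in CKO and 3710 to 4970 CPM in control lungs at E16, and 7820 to 9540 CPM in CKO and 7980 to 11000 CPM in control lungs at P3. The part of the epithelial share in the Plet1 difference was not tested. Averaged over stages the log2 fold change was -0.56 ± 0.11. Its antisense partner Plet1os had at most 7 counts in any library.

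The genes that were higher in CKO lungs all encode proteins. Usp28 is a deubiquitinase known for stabilising MYC and for acting with TRP53BP1 on p53, and it lies 8.03 Mb from Sin3a at chr9:48985375-49042517 (plus strand). Usp28 measured 86.3, 88.3, 74.5 and 65.7 CPM in E16 CKO lungs, against 51.5, 51.8, 55.1 and 54.0 CPM in control lungs. Usp28 measured 47.9, 61.4, 53.0 and 49.3 CPM in P0 CKO lungs, against 33.3, 30.6, 41.3 and 32.2 CPM in control lungs. Usp28 measured 45.5, 73.1, 55.1 and 80.5 CPM in P3 CKO lungs, against 42.3, 40.1, 45.1 and 41.2 CPM in control lungs. The groups were apart at every stage, and at P3 CKO replicate 1 lay close to the controls. Its log2 fold change was nearly constant, at 0.58 ± 0.11, 0.61 ± 0.16 and 0.59 ± 0.16 at E16, P0 and P3.

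Among 11 tested partners and substrates of USP28, Usp28 itself left out, 3 were called higher and 0 lower in CKO lungs over the stage average, against 5.38% of all genes called higher and 3.0% lower. Ccne1, the G1 cyclin E1, had a log2 fold change of 1.29 ± 0.20 (edgeR quasi-likelihood test, adjusted p = 0.000349). Trp53bp1, with 0.46, and Chek2, a DNA damage kinase, with 0.48, were the other 2 called (adjusted p = 0.0106 and 0.0237). Of the 11, 8 had a positive and 3 a negative log2 fold change. Myc, with 0.16, and Trp53, with -0.02, were not called, nor were Notch1, with -0.26, and Jun, with -0.25. These are RNA levels, and protein levels were not measured here. The median log2 fold change without Usp28 was 0.11, against -0.02 over all genes. This list was also drawn up with earlier results of these data known, so its counts and p-values are descriptive.

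Cep164 builds the distal appendages with which a centriole docks at the membrane to start a cilium. It lies 11.24 Mb from Sin3a at chr9:45766946-45828691 (minus strand). E16 CKO lungs had 72.6, 94.3, 77.1 and 61.4 CPM, against 65.5, 54.8, 56.6 and 49.1 CPM in control lungs. P0 CKO lungs had 64.1, 94.9, 63.0 and 73.3 CPM, against 60.0, 59.2, 41.5 and 50.8 CPM in control lungs. P3 CKO lungs had 54.2, 71.4, 59.2 and 67.2 CPM, against 51.8, 33.9, 41.3 and 42.7 CPM in control lungs. The groups overlapped at E16 and were narrowly apart at P0 and P3, with a log2 fold change of 0.50 ± 0.09 averaged over stages. The locus AC126804.1, which overlaps it, stayed at or below 2.19 CPM.

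Of 14 other tested genes of the distal appendage and of cilium start, 5 were called higher in CKO lungs and 0 lower, against 5.38% and 3.0% of all genes. Odf2, a protein of the centriole appendages, had a log2 fold change of 0.49 (edgeR quasi-likelihood test, adjusted p = 0.000266), and Cep89, another distal appendage protein, one of 0.45 (adjusted p = 0.000946). Further distal appendage genes were not called, with log2 fold changes of 0.27 for Cep83, 0.07 for Sclt1, 0.04 for Lrrc45 and -0.01 for Fbf1. The median without Cep164 was 0.20, against -0.02 over all genes. As with the other lists, these genes were chosen with earlier results of these data known, so counts and p-values are descriptive.

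Igdcc4, an immunoglobulin superfamily surface protein known in mice from fetal liver progenitors, lies 7.97 Mb from Sin3a at chr9:65101486-65137940 (plus strand). E16 CKO lungs had 45.9, 46.2, 42.8 and 41.2 CPM, against 41.3, 39.6, 30.8 and 25.5 CPM in control lungs. P0 CKO lungs had 30.6, 48.7, 32.2 and 28.2 CPM, against 9.30, 12, 17.9 and 10.1 CPM in control lungs. P3 CKO lungs had 21.1, 37.6, 30.2 and 50.6 CPM, against 21.8, 15, 13.4 and 14.7 CPM in control lungs. The groups were well apart at P0 and touched at E16 and P3. At P3 the overlap came from CKO replicate 1 and control replicate 1. Log2 fold changes came to 0.38 ± 0.14 (E16), 1.49 ± 0.27 (P0) and 1.10 ± 0.26 (P3). P0 control replicate 3, high in thymus markers, also had the highest control value at P0.

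Lactb, a mitochondrial protein related to bacterial beta-lactamases that forms filaments between the membranes, lies 9.83 Mb from Sin3a at chr9:66955388-66975484 (minus strand). E16 CKO lungs had 26.0, 35.6, 36.9 and 17.1 CPM, against 13.4, 14.4, 13.4 and 12.6 CPM in control lungs. P0 CKO lungs had 19.2, 30.5, 26.6 and 37.9 CPM, against 22.3, 17.8, 17.8 and 20.5 CPM in control lungs. P3 CKO lungs had 26.2, 39.1, 31.4 and 37.2 CPM, against 24, 21.1, 22.5 and 20.2 CPM in control lungs. The groups were apart at E16 and P3 and overlapped at P0 through CKO replicate 1, the CKO library high in thymus markers. Log2 fold changes came to 1.12 ± 0.22 (E16), 0.53 ± 0.22 (P0) and 0.61 ± 0.13 (P3).

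A single library recurs in these values: P3 CKO replicate 1 had the lowest CKO level at P3 of Usp28, Igdcc4, Cep164 and Lactb. Its 6 mesenchymal markers summed to 1370 CPM, against 815 to 1020 CPM in the other P3 CKO lungs. Its epithelial markers summed to 9540 CPM, against 7820 to 8410 CPM in those, its 4 endothelial markers to 2660 CPM, against 1720 to 2280 CPM, and its 4 erythroid markers to 4690 CPM, against 5250 to 15200 CPM. The part of these in the genotype differences was not tested. The alternatives run included leaving out each library in turn and some together, scaling, filter, other tests, blocks and a Xist covariate. Under all of them every member kept the sign of its stage-average difference. The members were chosen on this contrast and most alternatives leave out 1 library, so kept signs are a description only. The Pts log2 fold change ran from -0.91 to -0.74, that of Igdcc4 from 0.90 to 1.09 and that of AC107819.3 from -1.54 to -1.16.

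**Figure D3:**
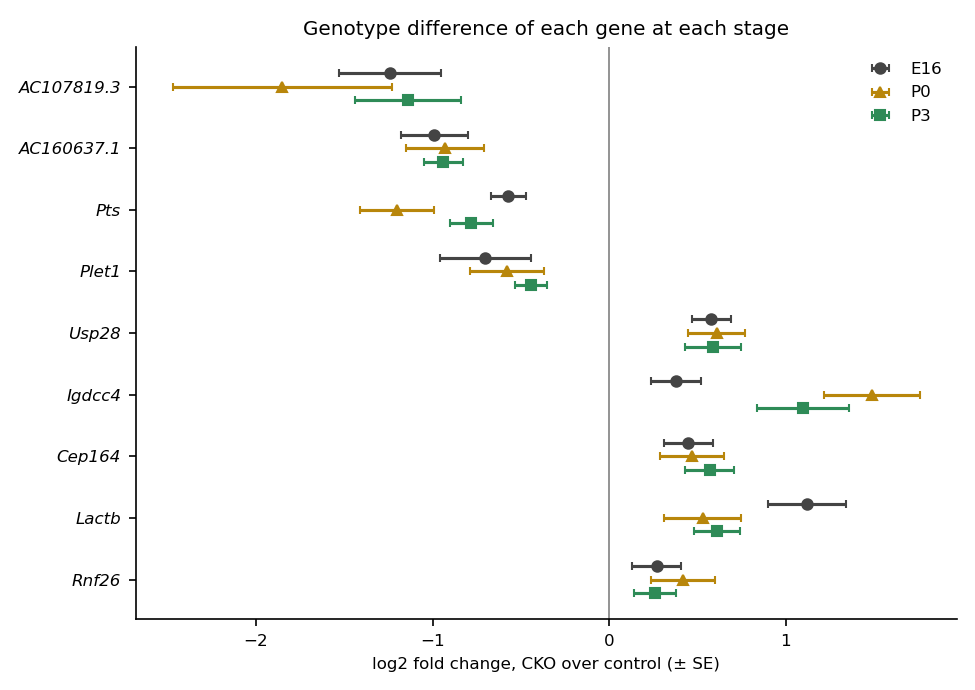
Log2 fold change, CKO over control, of each gene at E16, P0 and P3 with its standard error (8 libraries per stage). AC160637.1 and Usp28 have nearly the same value at each stage, while Igdcc4, AC107819.3, Pts and Lactb vary most between stages.

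Whether the genotype difference of a gene changed with stage was tested as an interaction over all 24 libraries. None of the 10 member rows passed in any of the 3 contrasts (edgeR quasi-likelihood test, adjusted p = 1.0 for each), and 0 of all 18415 genes did (0.0%). DESeq2 and limma-voom also called 0 member rows. At an unadjusted p below 0.05 there were 2 of 10 member rows for P0 against E16, 1 for P3 against P0 and 1 for P3 against E16. Over all 18415 genes the counts at that cut were 515, 423 and 212. Igdcc4 had the largest such change, with a log2 difference of 1.14 ± 0.35 for P0 against E16 (unadjusted p = 0.00321, adjusted p = 1.0). Pts followed with -0.61 ± 0.20 for P0 against E16 (unadjusted p = 0.00522, adjusted p = 1.0). For Usp28 the change for P3 against E16 was 0.02 ± 0.20 and for AC160637.1 it was 0.07 ± 0.25, where the control genotype in the titles also differs between the stages.

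Control lungs alone show how these genes change around birth. Of 9 rows tested, 7 changed at P0 against E16, 3 higher and 4 lower, while 50.0% of all genes changed, 26.9% higher and 23.0% lower. At P3 against E16, 8 of 9 changed, 3 higher and 5 lower, while 43.4% of all genes changed, 21.9% higher and 21.5% lower. At P3 against P0, 0 of 9 changed, while 12.1% of all genes did. For P3 against P0, 2 of 9 rows had an unadjusted p below 0.05, as did 5461 of all 17696 genes. The lowest adjusted p was 0.0885 for Usp28, DESeq2 called 1 and limma-voom 0. Without P0 control replicate 3, the library high in thymus markers, 4 rows were called at P3 against P0. The share of all genes called under these alternatives is not given here. Titles give the E16 and P0 controls as F/+ and the P3 controls as F/F, so stage and genotype cannot be told apart in the changes to P3.

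Plet1 had the largest change between stages of the 9 rows. It averaged 3.26 ± 0.651 CPM at E16, 34.1 ± 8.20 CPM at P0 and 29.2 ± 1.24 CPM at P3 in control lungs (SD, n = 4 each). The log2 change for P0 against E16 was 3.40 ± 0.20 (edgeR quasi-likelihood test, adjusted p = 4.37e-07), and the P0 and P3 levels did not differ past the threshold (log2 change -0.23, adjusted p = 0.412). Epithelial markers in the same controls summed to 3710 to 4970 CPM at E16, 8490 to 13100 CPM at P0 and 7980 to 11000 CPM at P3, and their part in the Plet1 change was not tested. Lactb rose too, by 0.56 on the log2 scale at P0 against E16 (edgeR, adjusted p = 0.00167).

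Pts rose modestly, with 22 ± 1.44, 28.2 ± 4.28 and 29.6 ± 2.74 CPM in control lungs at E16, P0 and P3 (SD, n = 4 each). Its log2 change for P0 against E16 of 0.37 ± 0.13 (edgeR, adjusted p = 0.0257) lost its call without E16 control replicate 1, 2 or 3 or P0 control replicate 3 or 4. Leaving those out gave log2 changes of 0.30 to 0.36 and adjusted p from 0.0519 to 0.0784.

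A set of 4 genes fell after E16 in control lungs. Igdcc4 averaged 34.3 ± 7.42, 12.3 ± 3.88 and 16.2 ± 3.76 CPM at E16, P0 and P3 (SD, n = 4 each), a log2 change of -1.46 ± 0.23 at P0 against E16 (edgeR, adjusted p = 0.000298). In CKO lungs it averaged 44.0 ± 2.44, 34.9 ± 9.35 and 34.9 ± 12.5 CPM at the same stages. AC107819.3 averaged 3.15 ± 0.444, 0.800 ± 0.412 and 1.34 ± 0.0872 CPM at E16, P0 and P3, a log2 change of -1.94 at P0 against E16. Usp28 fell by 0.61 ± 0.11 on the log2 scale (edgeR, adjusted p = 0.000516) and Rnf26 by 0.63, and both were also lower at P3 than at E16. For Usp28 the P3 against E16 change of -0.32 (adjusted p = 0.0269) lost its call without E16 control replicate 3 or 4 or P3 control replicate 1, 2 or 4, with adjusted p from 0.0514 to 0.0735.

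Cep164 had 56.5 ± 6.79, 52.9 ± 8.66 and 42.4 ± 7.34 CPM in control lungs at E16, P0 and P3 (SD, n = 4 each). Its log2 change of -0.40 ± 0.15 at P3 against E16 (edgeR, adjusted p = 0.0466) lost its call without E16 control replicate 1, 2 or 3, P0 control replicate 2 or 4, or P3 control replicate 2, 3 or 4. Under these the adjusted p ran from 0.0525 to 0.137. AC160637.1, at 28.4 ± 5.36, 27.7 ± 3.12 and 23.9 ± 1.64 CPM, passed no stage test (log2 change -0.24 at P3 against E16).

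Position along the chromosome was examined over all tested genes of the window. Within 10 Mb of Sin3a, 35 of 214 tested genes (16.4%) were called between the genotypes in the stage average, of which 20 were higher and 15 lower in CKO lungs. Without the member genes it was 28 of 207 (13.5%) within 10 Mb and 42 of 455 (9.23%) within 25 Mb. On chromosome 9 beyond 25 Mb the share was 9.70% (58 of 598), slightly above that of the 25 Mb window without the members. On the other chromosomes the share was 8.27% (1432 of 17314), and the other 18 autosomes ranged from 5.83 to 10.6%. Without the member genes, shares were 16.2, 11.4 and 12.2% in bins of 0 to 2.5, 2.5 to 5 and 5 to 10 Mb, and 4.42 and 6.67% in bins of 10 to 15 and 15 to 25 Mb. Within 1 Mb only Mpi, a mannose phosphate isomerase, and Tspan3, a tetraspanin, were called among 40 genes (5.0%). These are shares of genes without a test, and genes side by side are not independent.

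**Figure D4:**
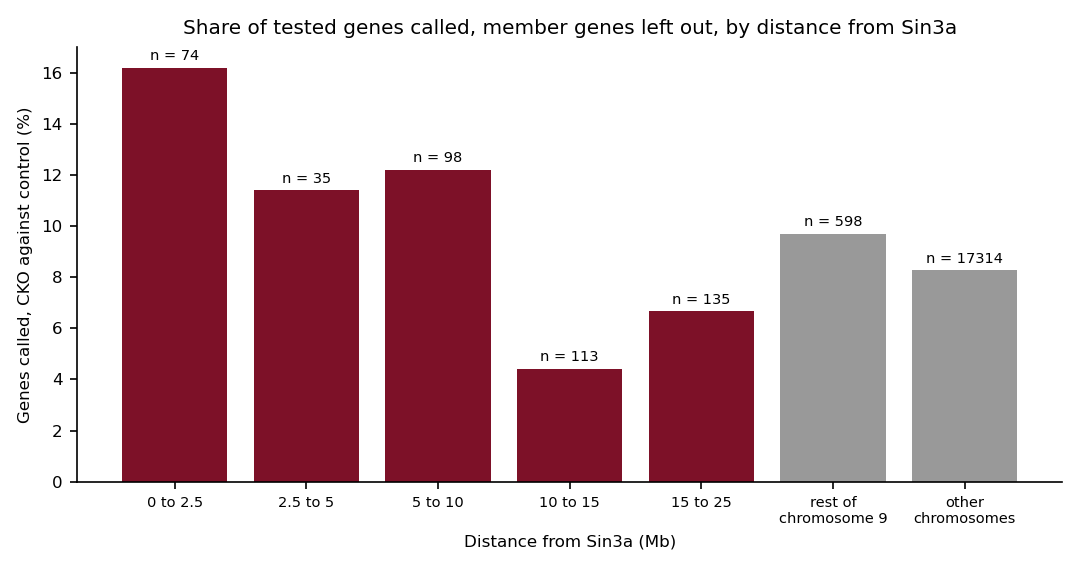
Percent of tested genes called between CKO and control lungs (stage average, adjusted p below 0.05) by distance from Sin3a, on chromosome 9 farther out, and on other chromosomes; the member genes are left out and n is the number of genes tested. Shares were 16.2, 11.4 and 12.2% in the bins up to 10 Mb and 4.42 to 9.70% in the other chromosome 9 bars.

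With the member genes left out, a choice made after seeing the data, the share within 10 Mb was above that outside the 25 Mb window under 35 of 36 alternatives run. Genes at 10 to 25 Mb are on neither side of that comparison. The exception was the fit with E16 and P0 libraries only, at 2 of 204 genes (0.98%) within 10 Mb against 1.54% outside 25 Mb. Within 25 Mb the share was above that outside under 32 of 36. Most alternatives leave out 1 library, so they share most of their data. The median log2 fold change was -0.02 in the 25 Mb window, as over the other chromosomes, and the 51 called genes of the window were 31 higher and 20 lower. Called genes of the window that were lower included Islr (-0.75 ± 0.20), an immunoglobulin-domain protein of mesenchymal cells, Cd276 (-0.60 ± 0.13), an immune checkpoint protein, and Dnaja4 (-0.53 ± 0.07), a co-chaperone. Dnaja4 and Mpzl2, a cell adhesion protein, were the only tested genes of the window besides the 4 members whose libraries were apart in one direction at all 3 stages. Without the members these were 2 of 455 genes (0.44%), against 0.331% of all genes.

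**Figure D5:**
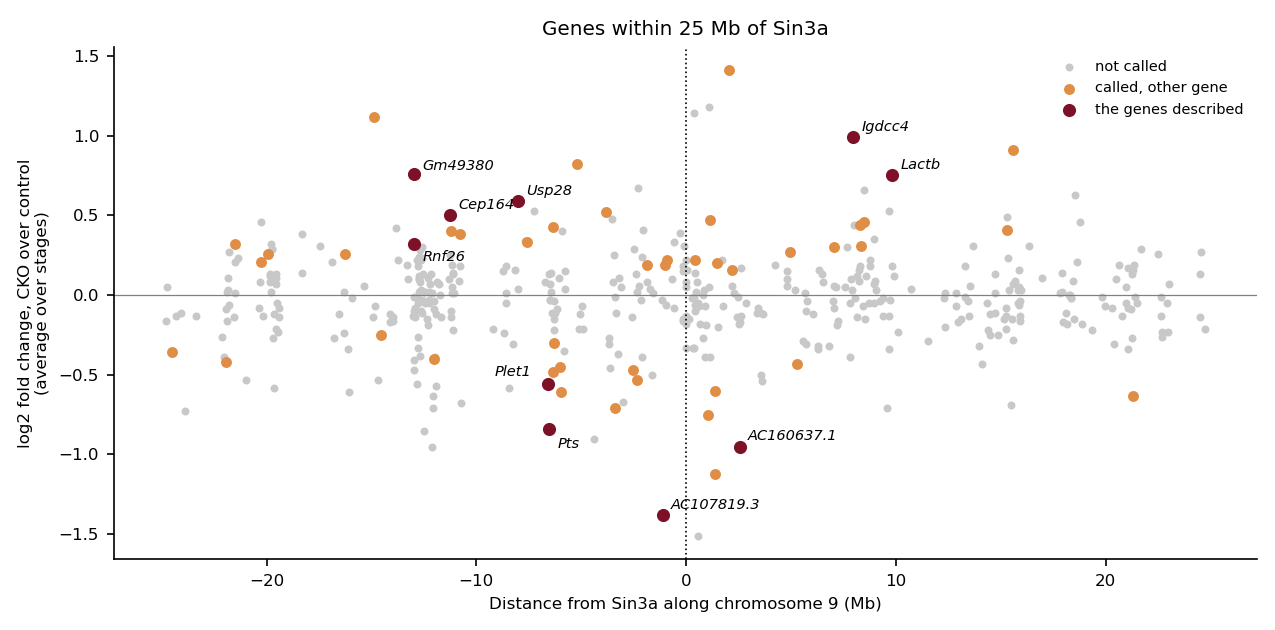
Log2 fold change, CKO over control, averaged over stages, against signed distance from Sin3a in Mb for the tested genes within 25 Mb; dark points are the genes described and orange points are other called genes. Genes called higher and lower are interspersed, and Gm49380, though dark, was not called.

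Of the 17 nearest tested genes on either side of the members, 2 (11.8%) were called, both higher in CKO lungs, against 8.38% of all genes. Bace1, a membrane protease beside Cep164, had a log2 fold change of 0.40 ± 0.08 (edgeR, adjusted p = 0.00261), and Rcn2, a reticulocalbin beside AC107819.3, one of 0.19 ± 0.06 (adjusted p = 0.0481). Bco2 and Rpl10-ps3, the nearest tested genes on either side of Pts and Plet1, had log2 fold changes of 0.13 ± 0.23 and 0.08 ± 0.10. Zw10, beside Usp28, had one of 0.04 ± 0.07.

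Likeness in level was measured as Pearson's r of log2 CPM centred on the stage means over 24 libraries, which keeps the genotype difference and depth that all libraries share, so values are descriptive. Most genes had their closest matches on other chromosomes, where most tested genes lie. Usp28 was most like Rpp40 and Trim37 (both r = 0.96), Cep164 like Pmm1 (0.95), Igdcc4 like Plxna3 (0.93), Lactb like Ing2 (0.93), Plet1 like Sept4 (0.90) and Rnf26 like Nomo1 (0.90). Gm9008 was the most like gene for AC160637.1 (0.90) and the next after Tmem233 (0.88) for Pts (0.87). AC107819.3 was most like Cib2 (0.83), which lies within 25 Mb of Sin3a as well. Among the 10 most similar genes of each, those within 25 Mb numbered 2 for Plet1, 1 each for Pts, AC160637.1, AC107819.3 and Gm49380, and 0 for the other 5 rows. Only 465 of the 18415 tested genes lie within 25 Mb, so few matches there are to be expected for any gene.

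The E-box CACGTG, the palindromic motif that MYC, MXD and MAX pairs bind, was looked for in promoters from RefSeq on GRCm38.p6 (250 bases before to 50 after the start, both strands). The 7 protein-coding members with a RefSeq promoter held 0 matches, and 7.15% of 32851 promoters had one.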

How the data were processed

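The authors deposited RSEM expected counts per gene, whole numbers as deposited, for 24 mouse lung libraries in 6 groups. An Illumina TruSeq RNA kit was used, per the labels' protocols. The submitters' processing notes name mm10, STAR 2.5.3a, RSEM 1.3.0 and edgeR but not their roles. The annotation was not given in the sources used here, nor was the strand setting, so sense and antisense reads cannot be told apart. RSEM shares reads among similar genes, so copies are uncertain.

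Counts were fitted over all genes with edgeR 4.0.16 (R 4.3.3): filterByExpr, TMM, robust quasi-likelihood test, Benjamini-Hochberg, threshold 0.05. The stage average had stage as a block. Interactions used 6 groups. Stage changes used the 12 control libraries. CPM are TMM-scaled, with factors of 0.891 to 1.06, and libraries held 27.02 to 36.35 M counts, so counting error weighs most on rows below 1 CPM. Coordinates are GENCODE M21, copies of the members were found with BLAST 2.17.0, and the scripts were tested on simulated counts. limma 3.58.1 and DESeq2 1.42.0 were alternatives. No libraries of a group agreed within sampling noise (chi-square per gene at least 18.9).

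The members and gene lists were chosen with earlier results of these data known. Named genes were all members, Sin3a, Gm9008, overlapping and nearest tested genes, called genes near Sin3a, the 2 most similar genes of each and up to 2 per list by smallest p. Trp53bp1, Chek2, Myc, Trp53, Notch1, Jun, Cep83, Sclt1, Lrrc45, Fbf1, the Hspa8 copies, Fli1 and Arhgap32 were named after their values were seen.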

Additional observations from a re-analysis of the deposited data

Results flagged for a closer look

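In P0 CKO lungs, replicate 4 had a Pts level of 16.2 CPM, against 10.8 to 11.5 CPM in the other 3 lungs of that group. Its gap to the nearest of them was 0.87 of the range of the group, above Dixon's 95% limit for 4 samples. Of 66 groups of values examined this was the only 1 past its limit, and chance passes it in about 1 in 20 groups. The library was not among those with high thymus or cartilage markers.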

How the results depend on the processing

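The number of genes within 25 Mb of Sin3a called over the stage average was 51, or 11%, members included, against 8.32% outside that window. With the identifier prefix of the labels as a block it was 81 (17.4% against 15.5% outside). In a fit chosen after seeing the data, with E16 and P0 libraries only, it was 9 (1.95% against 1.54%). In another, without P3 CKO replicate 1 and the P0 libraries high in thymus or cartilage markers, it was 84 (17.5% against 14.8%). Leaving out 1 library gave 36 to 63. The share was 7.58% against 5.19% outside without P3 CKO replicate 2, and 13.3% against 10.7% without P3 CKO replicate 1. At E16 the count was 0, with DESeq2 11 and without 1 library 0 to 5, the 5 without CKO replicate 4. At P0 it was 0, with DESeq2 6 and without 1 library 0 throughout. At P3 it was 1, with DESeq2 20, with a Xist covariate 14, with no filter 2, with the identifier prefix block 0 and without 1 library 0 to 49. It was 49 without P3 CKO replicate 1, and 0 without P3 CKO replicate 2, 3 or 4 or control replicate 2, 3 or 4. With the replicate block it was 0 at P3 and 37 over the stage average (7.96% against 5.82% outside). For the alternative fits of single stages, the share outside the window is not given here. Replicate numbers gave no steady pairing: correlations of same-numbered lungs ran from -0.32 to -0.05 at E16, -0.40 to 0.60 at P0 and -0.21 to 0.10 at P3. The 0.60 at P0 is the pair of replicate 4, which also shares an identifier prefix. Correlations of lungs sharing an identifier prefix ran from -0.11 to 0.31 at E16, 0.02 to 0.60 at P0 and -0.11 to 0.10 at P3. At P0 the same-prefix pairs gave 0.52, 0.54, 0.02 and 0.60, and the other pairs -0.40 to 0.13. Pairs without a shared prefix ran from -0.44 to 0.38 at E16 and -0.21 to 0.16 at P3. The main fits did not use the prefix. The cause of the moves in the count was not tested.

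In control lungs, 4 member rows (AC107819.3, Cep164, Igdcc4 and Usp28) changed at P3 against P0 without P0 control replicate 3 (among controls this is also the fit without the P0 libraries high in thymus or cartilage markers), and 1 with DESeq2, against 0. The share of all genes called in those fits is not given here. Without 1 library the counts were 0 to 4 at P3 against P0, 6 to 7 at P0 against E16 and 6 to 8 at P3 against E16. No member row's interaction was called under any alternative. All 359 genotype values of members kept their direction and moved by less than the within-group SD of log2 CPM. The members were chosen on this contrast and most fits share nearly all libraries, so this is a description only. Of the control stage values, 24 lost and 10 gained a call and none reversed.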
